A study of Mus musculus with 19 samples.

Results

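The genes described here are those of the heterotrimeric G proteins and of the regulators of G protein signalling (RGS). They were chosen by gene symbol alone, as all rows of the count tables named Gna, Gnb, Gng or Gngt with a number or letter of the family, or Rgs with a digit. The rule found 53 of 20436 genes: 13 Gα, 5 Gβ and 12 Gγ subunits, 20 RGS proteins (10 of the R4 group, 4 of R7, 3 of R12 and 3 of RZ), and 3 further rows, Rgs22 and the RGS-binding proteins Rgs7bp and Rgs9bp. All libraries came from hippocampal slices of wild-type male mice aged 28 to 42 days, and slices of several animals were pooled for each replicate. Basal slices had received vehicle (artificial cerebrospinal fluid) and DHPG slices 100 µM DHPG for 5 min, and both were then placed in 100 µg/ml cycloheximide in the cold and frozen. DHPG is an agonist of group I metabotropic glutamate receptors (mGluRs). RNA-seq was available for 4 basal and 5 DHPG samples of pooled slices. Ribosome profiling, the sequencing of ribosome-protected fragments (RPFs), was available for 5 basal and 5 DHPG samples. DHPG replicate 5 had no basal RNA library beside it.

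A heterotrimer consists of a Gα subunit, which binds GTP, and a Gβγ dimer. An activated receptor exchanges the GDP of Gα for GTP, and Gα and Gβγ then act on separate effectors. Gαs (Gnas, Gnal) stimulates adenylyl cyclase, Gαi/o (Gnai1, Gnai2, Gnai3, Gnao1, Gnaz) inhibits it, Gαq and its relatives (Gnaq, Gna11, Gna14, Gna15) activate phospholipase C β, and Gna12 and Gna13 form the remaining subfamily. RGS proteins speed the hydrolysis of GTP by Gα and so end the signal. Group I mGluRs, the receptors of DHPG, couple mainly to Gαq and Gα11.

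The Gγ subunits are among the shortest proteins of the signalling machinery, and little of each coding sequence (CDS) entered the counts. RPFs had been counted by the authors on each CDS without its first and last 30 bases. The 12 Gγ CDS span 204 to 228 bases (stop codon included), so that between 144 and 168 bases remained. The sequences of Gng2 and Gng13 are shown because they have nearly the same length and stand near the top and at the bottom of the Gγ members in the ratio of RPF to RNA described further on. They are the principal transcripts of the mouse annotation (mm10), with the counted part in capitals and the uncounted ends in lower case.
Gng2 (chr14:19872559-19977627, minus strand): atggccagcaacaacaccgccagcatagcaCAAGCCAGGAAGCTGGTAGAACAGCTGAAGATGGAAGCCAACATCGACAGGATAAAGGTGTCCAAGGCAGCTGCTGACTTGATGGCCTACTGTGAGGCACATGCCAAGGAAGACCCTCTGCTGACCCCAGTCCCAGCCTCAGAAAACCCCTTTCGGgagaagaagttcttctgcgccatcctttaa
Gng13 (chr17:25717171-25719406, plus strand): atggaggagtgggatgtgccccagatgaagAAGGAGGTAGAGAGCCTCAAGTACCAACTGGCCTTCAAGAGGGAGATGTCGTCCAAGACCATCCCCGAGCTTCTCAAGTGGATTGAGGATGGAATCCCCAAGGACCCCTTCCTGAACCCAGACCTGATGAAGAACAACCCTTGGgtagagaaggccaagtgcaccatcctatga
The lower-case 3′ end holds the CaaX box, the motif whose cysteine receives the lipid that anchors Gγ in the membrane. A cysteine codon, TGC or TGT, stood 4 codons before the stop codon in 12 of 12 Gγ genes, so that the codons of the box lay outside the counted part in each of them. The last 30 bases of 3 Gγ members are given with that codon in capitals, because no footprint there was counted.
Gng2: gagaagaagttcttcTGCgccatcctttaa
Gng7: aaagacaaaaagcctTGCataattctctag
Gng13: gtagagaaggccaagTGCaccatcctatga

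Total counts ran from 4870813 to 7793244 in the RNA libraries and from 5692064 to 22092434 in the RPF libraries. The hippocampal origin of the slices was checked on lists of marker genes. The summed level of 8 markers of CA1 and CA3 pyramidal cells lay between 446 and 695 CPM (counts scaled to library size with TMM factors) in RNA, and 4 markers of the dentate gyrus between 189 and 264 CPM. A list of 20 thalamic markers was also present, at 732 to 926 CPM. Replicate 4 had less RNA of 7 oligodendrocyte markers (2634 CPM basal and 3004 CPM DHPG) than the other libraries, which lay between 4525 and 6339 CPM. In bulk slices, a change in the number of cells of a type and a change of RNA per cell cannot be told apart.

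In basal slices, Gnas had the largest share of the Gα signal on the CDS lengths used here. Levels of different genes are given as CPM per kb of the counted CDS. Gnas reached 1464 ± 84.1 CPM per kb in RPF (SD, n = 5) and made up 51.5% ± 2.14 of the Gα sum (49.2% to 54.2% over libraries). Its share of RNA was 53.1% ± 0.245 (SD, n = 4). The locus of Gnas has several overlapping transcripts that share exons with it, and its counts may include them. The level rests on a CDS of 1185 bases. The longest annotated CDS of Gnas has 3402 bases, on which its level per kb and its share would be lower. Gnao1, the α subunit of Go and an abundant protein of neuronal membranes, was next in RPF, with 637 ± 41.2 CPM per kb. Its share of Gα was 22.4% ± 1.57 in RPF and 9.54% ± 0.879 in RNA, and the ranges of the libraries did not overlap (20.7% to 24.5% and 8.73% to 10.7%).

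Of the Gα subunits that couple group I mGluRs to phospholipase C, Gnaq had more RPFs than Gna11. Gnaq gave 185, 192, 186, 213 and 199 CPM in the basal RPF libraries of replicates 1 to 5, and Gna11 gave 63.8, 62.6, 64.4, 77.4 and 73.9 CPM. The CDS of both genes has 1080 bases, so these values compare without correction for length, and the libraries did not overlap. In RNA the genes lay close together, at 112 ± 12.8 CPM for Gnaq and 102 ± 10.7 CPM for Gna11 (SD, n = 4). Their ranges overlapped there (96.5 to 126 CPM for Gnaq and 91.8 to 112 CPM for Gna11). The relatives Gna14 and Gna15 were scarce, with 1.41 ± 0.513 and 0.795 ± 0.246 CPM in RPF (SD, n = 5).

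The remaining Gα genes formed a middle group. The inhibitory subunits Gnai1 and Gnai2 had 147 ± 8.83 and 127 ± 8.92 CPM per kb in RPF. Their ranges over the basal libraries overlapped, although Gnai1 was higher within each library. In RNA, Gnai2 had 219 ± 38.4 and Gnai1 134 ± 38.0 CPM per kb. Gnal, the αs form of the striatum and olfactory system, was present at 60.6 ± 3.69 CPM per kb. Gna13, Gnai3 and Gnaz lay at 45.7 ± 2.67, 42.0 ± 3.20 and 40.9 ± 3.91 CPM per kb, and their ranges over the libraries overlapped. Gna12 had 152.6 ± 38.2 CPM per kb in RNA, where its libraries overlapped with those of Gnai1, but 19.2 ± 1.58 in RPF.

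Gnb1 and Gnb2 supplied nearly all Gβ other than Gnb5. Gnb1 had 518 ± 45.9 and Gnb2 323 ± 45.4 CPM per kb in RPF, and Gnb4 had 33.2 ± 4.28. The share of Gnb1 in the sum of Gnb1 to Gnb4 was 59.3% ± 1.84 in RPF (57.4% to 61.8% in 5 libraries). In RNA, Gnb1 and Gnb2 had 490 ± 41.2 and 486 ± 82.0 CPM per kb, a difference within the spread of the libraries. Gnb3, a form of cone photoreceptors, had at most 1 count in any library. Gnb5, which pairs with RGS proteins of the R7 group in place of Gγ, reached 131 ± 10.5 CPM per kb in RPF. This was 2.71 ± 0.223 times the summed RPF level of its R7 partners Rgs6, Rgs7, Rgs9 and Rgs11 (SD, n = 5).

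The order of the Gγ genes differed between RNA and RPFs. Gng3 and Gng2, both common in neurons, led in RPF with 1127 ± 69.9 and 1055 ± 68.6 CPM per kb. Their libraries overlapped, so their order is not settled. Gng7, the Gγ form best known from striatal neurons, followed with 434 ± 40.9 CPM per kb. In RNA, Gng13, known from taste and olfactory tissue, was the highest at 328 ± 108 CPM per kb. It held 30.4% ± 4.44 of the Gγ RNA and 3.14% ± 0.319 of the Gγ RPFs. Gng2, Gng10, Gng5 and Gng3 followed in RNA, at 144 ± 21.2, 136 ± 9.41, 132 ± 50.6 and 129 ± 24.9 CPM per kb, and their libraries overlapped. Gng8, Gngt1 and Gngt2 were near or at 0: Gngt1, the rod form, had no count in any library, Gng8 had at most 4 counts and Gngt2 at most 12.

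The sums of the 3 kinds of subunit were compared as well. Gα exceeded Gβ (Gnb1 to Gnb4) 2.50 ± 0.147-fold in RNA and 3.27 ± 0.221-fold in RPF. The ratio of Gγ to Gβ was 1.04 ± 0.133 in RNA and 3.98 ± 0.366 in RPF. The ratio in RNA rests on the length on which RNA was counted, which the sources used here do not settle: it was 0.791 per kb of the whole CDS and 0.283 per kb of the whole transcript, in alternatives chosen after the data were seen, and that of Gα to Gβ was 2.52 and 1.67. With the longest annotated CDS of each gene, which for Gnas is that of an extended form, the ratio of Gα to Gβ was 1.70 in RNA and 2.24 in RPF. Gβγ dimers are obligate partners in the cell, and the excess of Gγ footprints was 4.70-fold when only positions that hold a whole footprint were counted as length. These are sums of sequencing signal per kb and not numbers of protein molecules.

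Among the RGS proteins, Rgs4 had the strongest signal. It gave 320, 346, 325, 287 and 291 CPM in the basal RPF libraries and made up 45.6% ± 2.24 of the RGS sum in RPF and 31.8% ± 1.94 in RNA. Rgs2, an RGS protein that prefers Gαq, and Rgs17 of the RZ group followed with 148 ± 18.1 and 95.4 ± 6.27 CPM per kb in RPF. Rgs14, which is known from area CA2 and limits plasticity there, had 77.5 ± 12.2 CPM per kb, and Rgs5, a gene of pericytes, had 74.4 ± 4.30. Rgs7bp, which anchors R7 complexes at the membrane, had 153 ± 12.8 CPM per kb. The groups of RGS proteins kept unequal shares of the signal. The R4 group, the small RGS proteins that act on Gαq and Gαi/o, made up 52.2% ± 3.85 of the RGS sum in RNA and 70.3% ± 1.71 in RPF, and the ranges over libraries did not overlap. The R12 group had 25.5% ± 3.48 and 11.2% ± 1.37, led by Rgs14 and Rgs10, which is also known from microglia. The R7 group had 10.1% ± 1.10 and 3.93% ± 0.206, most of it from Rgs7 (42.4 ± 6.68 CPM per kb in RNA), with Rgs9 at 8.62 ± 1.42 and Rgs6 at 6.91 ± 1.68. The RZ group, which acts on Gαz and Gαi/o, had 12.1% ± 1.31 and 14.6% ± 0.461, and its members Rgs17, Rgs20 and Rgs19 lay at 30.1 ± 7.07, 22.0 ± 0.726 and 20.7 ± 2.52 CPM per kb in RNA. Rgs8, an R4 gene of Purkinje and other neurons, had 37.3 ± 5.74 CPM per kb in RNA. Rgs21 had no count in any library, and Rgs13, Rgs18, Rgs22 and Rgs9bp had fewer than 10 counts on average in each group.

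**Figure D1:**
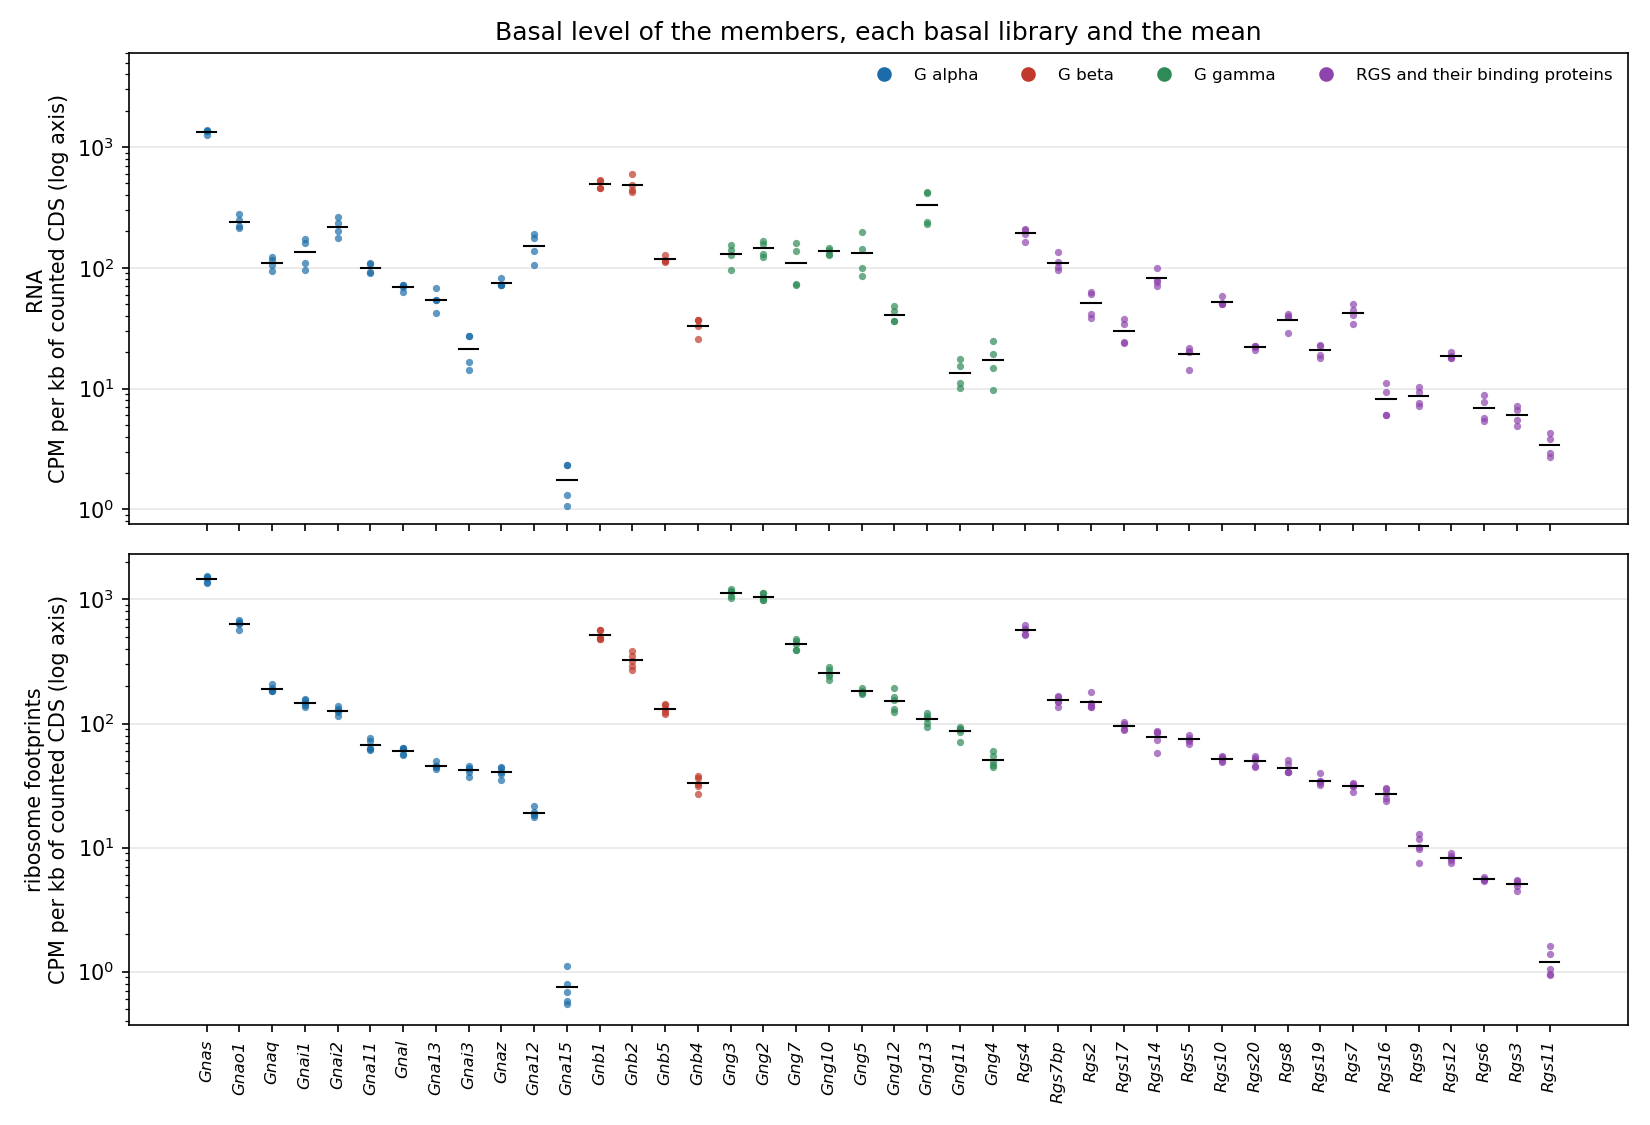
Level of the 42 members with at least 10 counts on average in both assays, in basal RNA (top) and basal RPF libraries (bottom), in CPM per kb of the counted CDS on log axes, with a point for each basal library and a bar for the mean. Gng3 and Gng2 stand with Gnas at the top in footprints, whereas Gng13 leads the Gγ genes in RNA.

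The ratio of RPF to RNA in basal slices was taken next, as the log2 CPM of RPF less the log2 CPM of RNA within each of replicates 1 to 4, less the median over all genes. A gene was called high or low where it lay more than 1 above or below that median in 4 of 4 replicates. Of the members, 42 of 53 had the 10 counts on average that were required in each assay. High were 12 of them and low was 1, against 9.71% high and 9.77% low among 12619 genes. The median of the members was 0.40. The members called high were 5 Gγ genes (Gng2, Gng3, Gng7, Gng11, Gng12), 4 R4 genes (Rgs2, Rgs4, Rgs5, Rgs16), both Rgs17 and Rgs20 of the RZ group, and Gnao1. The member called low was Gna12.

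The ratio followed the length of the CDS. Across the 42 members Spearman's correlation with CDS length was -0.64, and across 12158 genes it was -0.37. These are descriptions across genes of the same libraries. Genes with a CDS under 300 bases had a median ratio of 1.68, and 61.5% of 192 such genes were high. Genes with 600 to 1200 bases had a median of 0.26. RNA fragments were longer than footprints, per the study's methods, so that a stretch of this size offers fewer positions to them. The part this played in the high ratios was not tested. Relative to their own class of length, 7 members stayed high (Gng2, Gng3, Rgs2, Rgs4, Rgs5, Rgs16 and Rgs17), against 7.02% of all genes.

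Gng3 and Gng2 were the highest members. The ratio of Gng3 was 3.29 ± 0.36 and that of Gng2 was 3.07 ± 0.30 (SD, n = 4), or 9.81 and 8.39 times the median gene. Both lay above the median of their class of length, by 1.61 and 1.38. Gng11 (2.68 ± 0.25), Gng7 (2.19 ± 0.65) and Rgs5 (2.14 ± 0.23) followed, of which Rgs5 alone stayed high within its class. Gng11 rests on few RNA counts (8 to 20 per basal library). It was not among the members called high when at least 10 counts were required in every basal library. Gng13, with a CDS of 204 bases, had a ratio of -1.40 ± 0.45, which came to -3.09 when the median of its class was taken off. Within replicates, the ratio of Gng13 was lower than that of Gng7 by 3.15 to 4.00. The RNA of Gng13 was 34.31, 60.99, 60.35 and 33.32 CPM in basal replicates 1 to 4, and its RPFs were 15.8, 16.6, 14.5, 13.5 and 17.6 CPM in replicates 1 to 5. Replicates 2 and 3 were the high ones in RNA, and in RPF they did not stand above the others.

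Gna12 was the lowest member. Its RNA was 149, 191, 206 and 115 CPM in basal replicates 1 to 4 and its RPFs were 20.02, 23.45, 19.89, 19.03 and 21.08 CPM in replicates 1 to 5. The ratio was -2.78 ± 0.32 (SD, n = 4), which is 0.146 times the median gene, and no replicate came nearer to the median than -2.41. Gna13, the other gene of its subfamily, had a ratio of -0.054 ± 0.23. The CDS of Gna12 and Gna13 have 1140 and 1134 bases, and their transcripts 3416 and 6160 bases. The part of length in the difference was not tested. Below -0.9 were also Rgs11 (-1.42 ± 0.49), Gna15 (-1.13 ± 0.32) and Rgs12 (-0.99 ± 0.19), none of them low in 4 of 4 replicates. Rgs11 and Gna15 rest on few counts (9 to 33 per basal library for Rgs11).

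**Figure D2:**
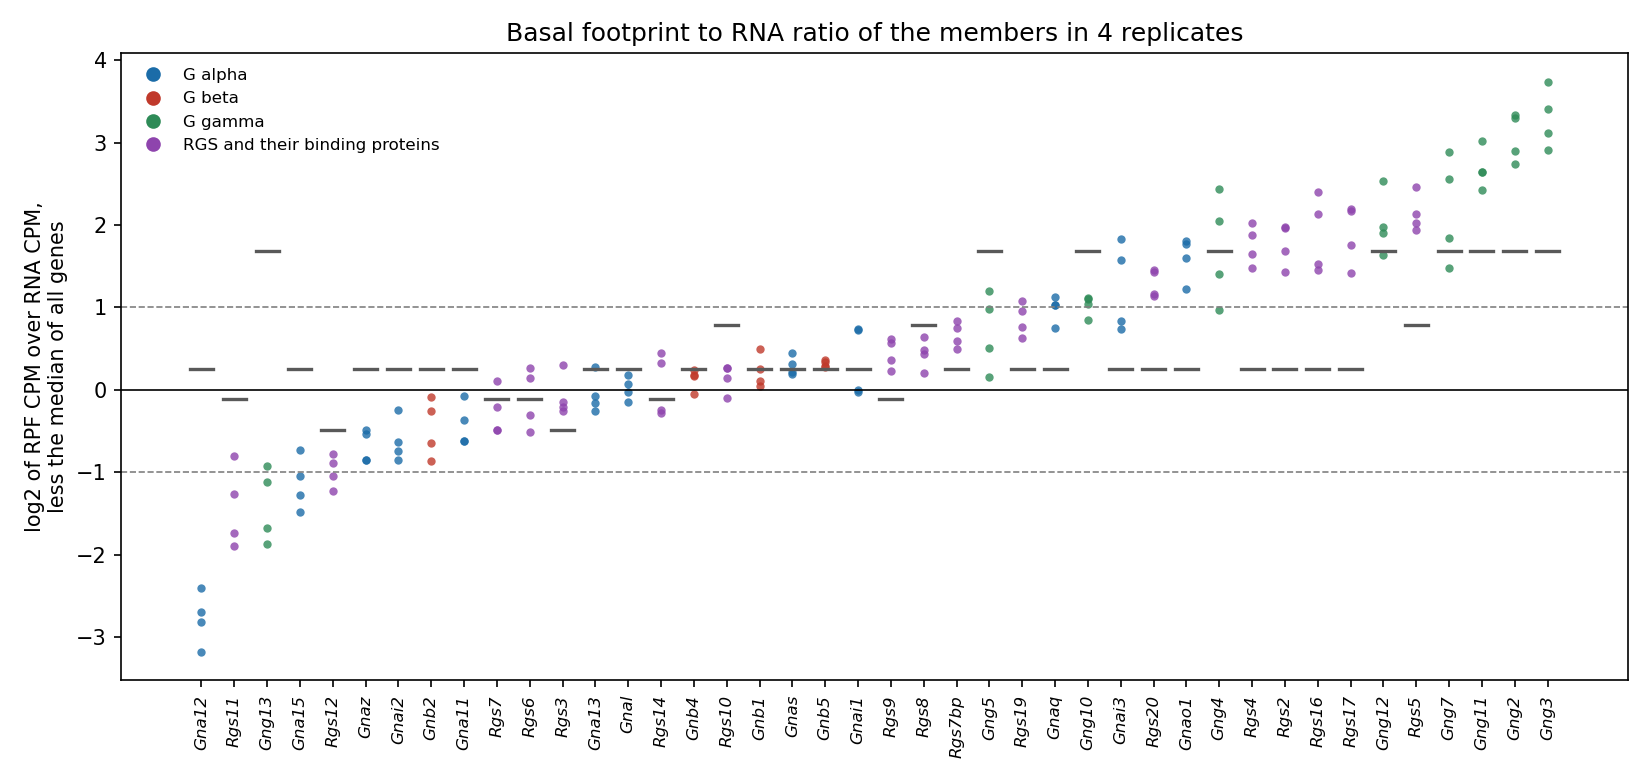
Basal RPF to RNA ratio (log2, less the median of all genes) of the 42 members with a value, with a point for each of replicates 1 to 4, a grey bar at the median of genes of the same class of CDS length, and dashed lines at 1 above and below the median. Gna12 and Gng13 fall far below their bars, and Gng3, Gng2 and the R4 genes Rgs2, Rgs4, Rgs5 and Rgs16 lie above theirs.

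Close relatives with CDS of equal or nearly equal length showed unequal ratios. Gnaq exceeded Gna11 by 1.40 ± 0.35 (SD, n = 4; 1.10 to 1.74), or 2.64-fold. Gnb1 exceeded Gnb2 by 0.69 ± 0.35 (0.30 to 1.1), and Gnai3 exceeded Gnai2 by 1.86 ± 0.78 (0.98 to 2.69). Gna13 exceeded Gna12 by 2.72 ± 0.55 (2.14 to 3.45). In each of these pairs the gene with the lower share of G and C in its CDS had the higher ratio: 49.8% against 55.6% for Gnaq and Gna11, 51.9% against 58.4% for Gnb1 and Gnb2, 43.8% against 54.7% for Gnai3 and Gnai2, and 52.5% against 59.7% for Gna13 and Gna12.

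The direction was counted over all pairs of 1 subfamily whose CDS differed by at most 5% in length, a rule chosen after these values had been seen. The pairs named above, which prompted the count, are among them, so it is no independent check. Of 18 pairs of Gα or of Gnb1 to Gnb4, the gene with less GC had the higher ratio in 4 of 4 replicates in 13 pairs and the lower ratio in 2, namely Gnal against Gnas and Gnai1 against Gnao1, and the replicates differed in sign in 3. Of 18 Gγ pairs, 7 went each way and 4 differed in sign. The pairs share genes and are not independent. Across all genes the median ratio was 0.54 in the fifth with the lowest GC content and -0.48 in the fifth with the highest. Spearman's correlation between ratio and GC content was -0.32 across 12158 genes and -0.40 across the 42 members. The part of GC content in any single ratio was not tested.

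The question of the DHPG comparison was whether mGluR stimulation altered the RNA or the ribosome occupancy of the machinery that carries the signal. No member passed the threshold in RNA (adjusted p under 0.01), in RPF (under 0.05) or in translational efficiency (TE, the change of RPF beyond that of RNA, under 0.05). These counts of 0 come from edgeR's quasi-likelihood test with Benjamini-Hochberg adjustment over all genes and the replicate number as a block. Of all genes, 0.00773% passed in RNA, 0.22% in RPF and 0% in TE. At an unadjusted p under 0.05 there were 3 of 42 members in RNA, 5 of 43 in RPF and 3 of 41 in TE, against 8.02%, 10.8% and 6.77% of all genes. DESeq2 with the same block also called 0 members in RNA and RPF, with 0 and 1 at an unadjusted p under 0.05. After removal of the replicate effect with ComBat, close to the study's procedure, DESeq2 called 0 in RNA and 1 in RPF, which was Gng2 (adjusted p = 0.0434). The shares of all genes with DESeq2 are not given here, so these counts do not set the members apart from other genes.

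RPF changes of the members were small where the libraries could resolve them. The 95% interval of the log2 fold change lay within 0.25 of 0 for 36 of 43 members in RPF and for 16 of 42 in RNA. The members' median SE was 0.049 in RPF and 0.10 in RNA. The same share over all genes was not taken, so these counts do not set the members apart from other genes. The members' median difference (log2) in RPF was 0.0038, beside 0.0031 for all genes, with 23 members above 0 and 20 below (51.4% of all genes above 0). In RNA it was 0.055, beside 0.0068 for all genes, with 26 above and 16 below (52.1% of all genes above 0). In TE it was -0.051, with 15 above and 26 below, beside -0.0014 for all genes (49.5% above 0). RNA was higher in 4 of 4 pairs for 11 of 42 members (Gna11, Gnai2, Gnao1, Gnas, Gnaz, Gng3, Gng5, Rgs3, Rgs9, Rgs16 and Rgs19) and lower in 4 of 4 pairs for 0, against 8.67% and 6.97% of all genes. In RPF the corresponding counts were 1 of 43 (Gng2) and 1 of 43 (Gnas), against 5.16% and 4.72%. The members' changes in RNA share their libraries, so this count is not that of independent genes. Markers of oligodendrocytes leaned the same way: 7 of 7 had a log2 fold change above 0 in RNA (median 0.16), 4 of them at an unadjusted p under 0.05, and their median was above 0 in 4 of 4 pairs. Their summed RNA was 2634 to 5540 CPM in basal and 3004 to 6339 CPM in DHPG libraries, and none was at 0 in every library. In RPF 6 of 7 were above 0 (median 0.11) and 1 passed the threshold. Other lists leaned upward in RNA too: 7 of 8 CA1 and CA3 pyramidal markers (median 0.11), 4 of 4 dentate (0.085) and 16 of 17 thalamic markers (0.25). Markers of interneurons (5 of 7), endothelium (6 of 8) and mural cells (4 of 6) were mostly below 0 in RNA. The part of any cell type in the members' values was not tested.

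**Figure D3:**
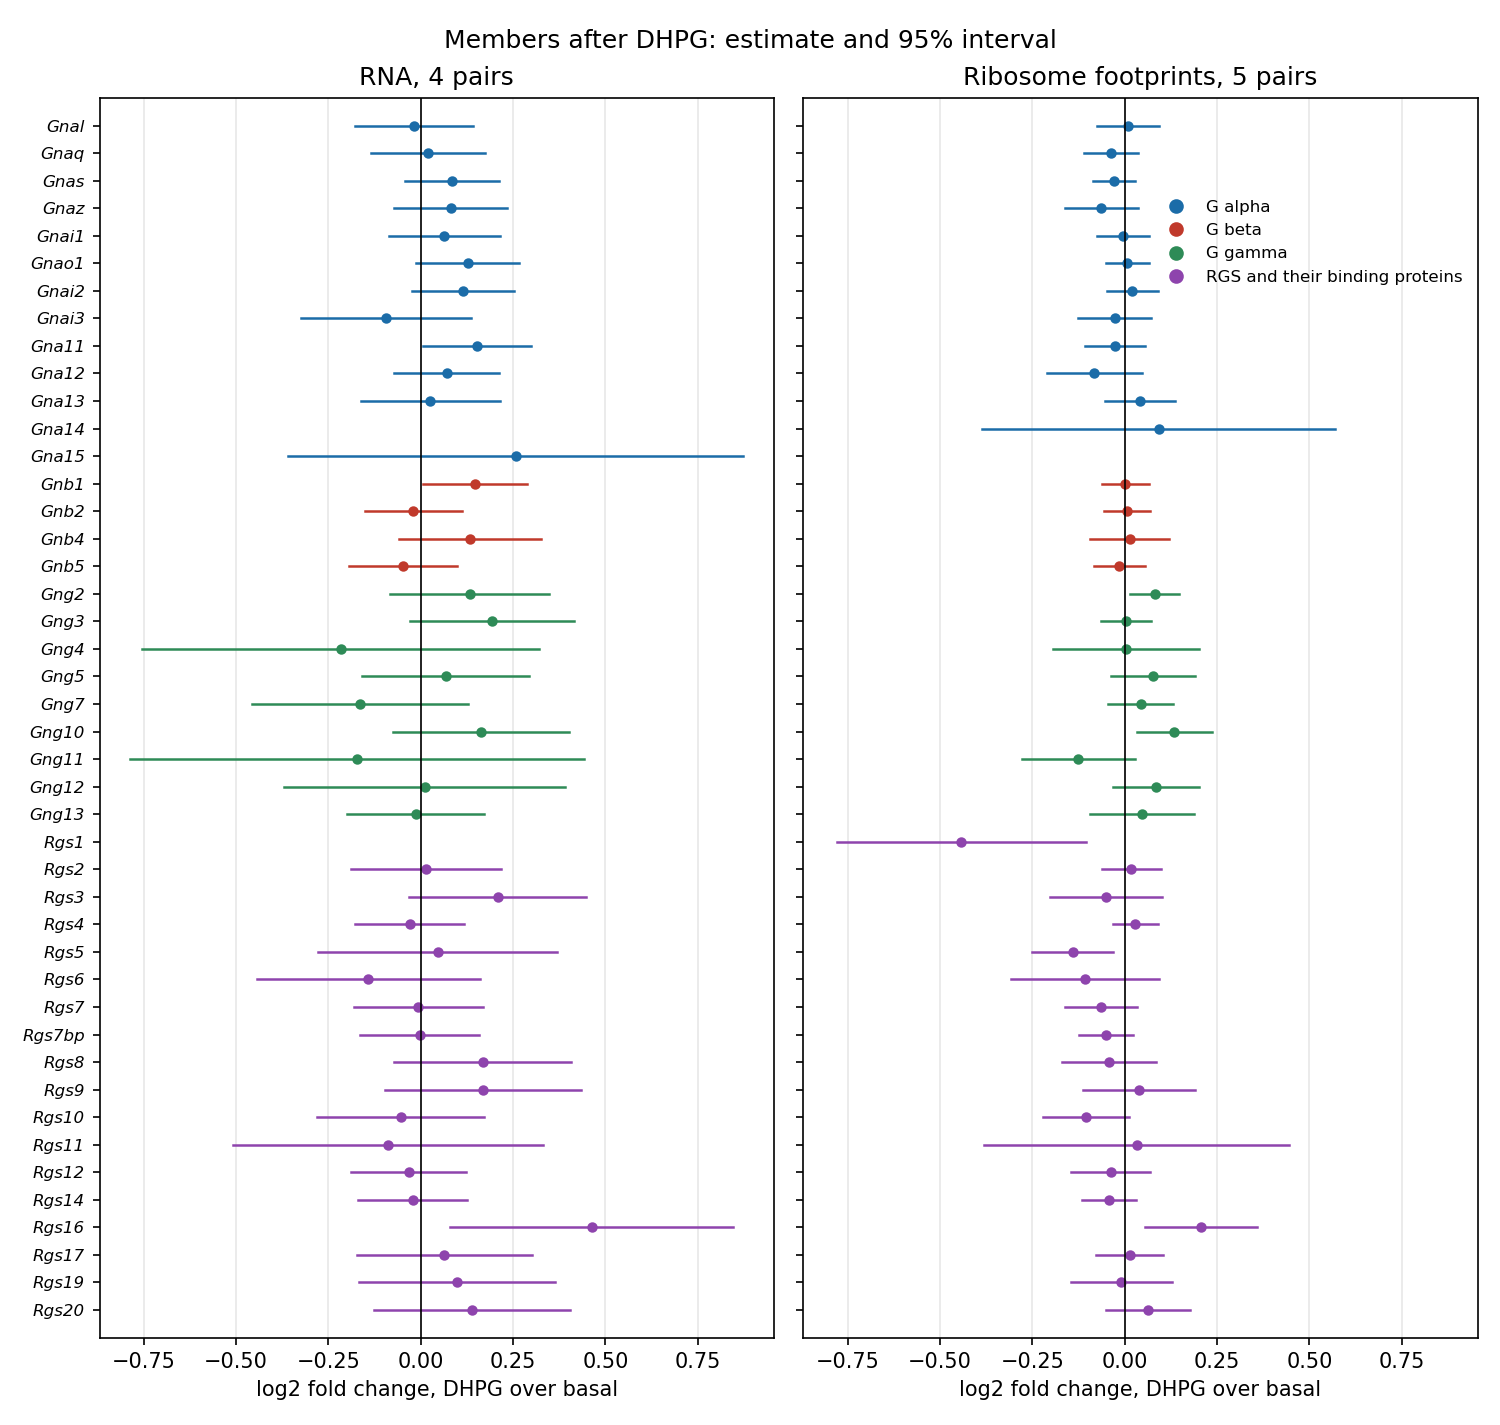
Log2 fold change of DHPG over basal slices for the members tested, with its 95% interval from edgeR, in RNA (left, 4 pairs) and RPF (right, 5 pairs). Estimates in RPF cluster near 0 with narrow intervals, and Rgs16 is the member farthest to the right in RNA and in RPF.

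The transducers and regulators of group I mGluR signalling were followed by name. Over Gnaq, Gna11, Gnb1, Gnb2, Gnb5, Gng2, Gng3, Gng7, Rgs2, Rgs4, Rgs7, Rgs7bp and Rgs14, the log2 fold changes in RPF lay between -0.064 (Rgs7) and 0.081 (Gng2). Their 95% intervals reached from -0.16 (Rgs7) to 0.15 (Gng2). In RNA the estimates of the 13 genes lay between -0.16 (Gng7) and 0.19 (Gng3), with intervals from -0.46 to 0.41. Gnaq itself was at 0.019 ± 0.076 (SE) in RNA and -0.037 ± 0.036 in RPF. Its adjusted p-values in edgeR were 0.969 and 0.777.

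Gna11 had the smallest p in TE of the members. Its RNA was 93.8, 110, 112 and 91.8 CPM in basal replicates 1 to 4 and 104, 128, 123 and 98.8 CPM in the DHPG slices of the same replicates. Each pair was higher after DHPG, although the groups overlapped. The estimates (log2) were 0.15 ± 0.071 (SE) for RNA, -0.026 ± 0.040 for RPF and -0.18 ± 0.071 for TE. The unadjusted p was 0.0422 in RNA and 0.0181 in TE, and the adjusted p from edgeR was 0.609 and 0.69. Gnb1 gave a like set of values, at 0.15 ± 0.069 in RNA, 0.0014 ± 0.032 in RPF and -0.15 ± 0.070 in TE, with RNA higher in 3 of 4 pairs. The TE values come from a fit that did not pair RNA and RPF of a lysate. With limma on the paired differences, 0 of 41 members had an unadjusted p under 0.05 in TE.

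Gnas, the member with the highest CPM, had RNA values above and RPF values below basal in every pair. RNA was 1542, 1537, 1521 and 1415 CPM in basal replicates 1 to 4 and 1662, 1585, 1573 and 1556 CPM after DHPG, with 1364 CPM in the unpaired DHPG replicate 5. RPF was 1684, 1559, 1535, 1701 and 1753 CPM in basal and 1666, 1522, 1508, 1699 and 1674 CPM in DHPG slices. The groups overlapped in both assays. The differences were small: 0.084 ± 0.062 in RNA, -0.029 ± 0.028 in RPF and -0.11 ± 0.055 in TE (log2, SE). None passed the adjustment, and the adjusted p in TE was 0.727 with edgeR.

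Rgs16, an R4 protein induced by stimuli in many cell types, had the largest positive log2 fold change of the members in RNA and in RPF. Its RNA was low, at 3.27, 3.30, 5.09 and 6.07 CPM in basal replicates 1 to 4 and 4.52, 5.36, 7.33 and 7.45 CPM in the matched DHPG slices. The unpaired DHPG replicate 5 had 4.20 CPM. In RPF the basal slices had 13.7, 16.5, 12.9, 16.1 and 15.0 CPM and the DHPG slices 15.5, 20.1, 14.8, 22.7 and 13.2 CPM, so that replicates 1 to 4 were higher and replicate 5 was lower. On the log2 scale RNA differed by 0.46 ± 0.19 and RPF by 0.21 ± 0.076 (SE). With unadjusted p of 0.0196 and 0.00919, the adjusted p from edgeR was 0.56 and 0.298. Markers of the thalamus, where Rgs16 is strongly expressed, were also higher for the most part: 16 of 17 tested were higher in RNA (median 0.25) and 18 of 19 in RPF (median 0.17), and 1 and 6 of them passed the thresholds. Their summed level was 732 to 789 CPM in basal and 743 to 926 CPM in DHPG libraries in RNA, and 581 to 685 and 597 to 786 CPM in RPF. By pair, their RPF median was 0.19, 0.38, 0.28, 0.33 and -0.14 in replicates 1 to 5, with the negative value in the pair where Rgs16 was lower. None of the 20 thalamic markers was at 0 in all libraries. The list was written with earlier results of these data known. Much of its sum came from Cacna1g, Adarb1 and Kcnc2, at 148, 139 and 134 CPM on average in basal RNA, against 22.4 for Prkcd. The part of these markers in the Rgs16 values was not tested.

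Among the Gγ genes, RPFs of Gng2 were higher in 5 of 5 pairs. The basal slices had 163, 177, 175, 156 and 153 CPM and the DHPG slices 168, 192, 181, 160 and 169 CPM. The groups overlapped, and the log2 fold change of 0.081 ± 0.033 had an adjusted p of 0.349 in edgeR. Gng10 was at 0.13 ± 0.051 with 4 of 5 pairs higher and an adjusted p of 0.312. Of the 9 Gγ genes tested in RPF, 8 were above 0 (median 0.046) and Gng11 was at -0.13 ± 0.076, whereas in RNA 5 were above 0 and 4 below (median 0.010).

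Both Rgs5 and Rgs1 of the R4 group had lower RPF values, but not past the threshold. Rgs5 had 35.9, 39.2, 35.3, 36.9 and 33.5 CPM in basal slices and 28.8, 33.0, 37.1, 31.3 and 30.7 CPM in DHPG slices, lower in 4 of 5 pairs. Its log2 fold change was -0.14 ± 0.055 with an adjusted p of 0.329 in edgeR. All 8 endothelial markers tested were below 0 in RPF as well (median -0.18), with sums of 48.0 to 74.7 CPM in basal and 47.1 to 69.3 CPM in DHPG libraries, although by pair their median was above 0 in 3 of 5. Markers of mural cells, which express Rgs5, had a median of 0.018, with 3 of 6 below 0 and sums of 161 to 192 and 164 to 210 CPM. The part of vessel content in the Rgs5 values was not tested. Rgs1, a gene of immune cells, had 4.35, 3.29, 2.86, 1.87 and 4.22 CPM in basal and 2.14, 2.68, 2.10, 2.45 and 2.43 CPM in DHPG slices. Its log2 fold change was -0.44 ± 0.17 with an adjusted p of 0.317 in edgeR, on a mean of 42.8 counts per basal and 29.0 per DHPG library. The 8 microglial markers tested were above 0 in RPF (median 0.11), with sums of 360 to 508 CPM in basal and 423 to 562 CPM in DHPG libraries, and their part was not tested.

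**Figure D4:**
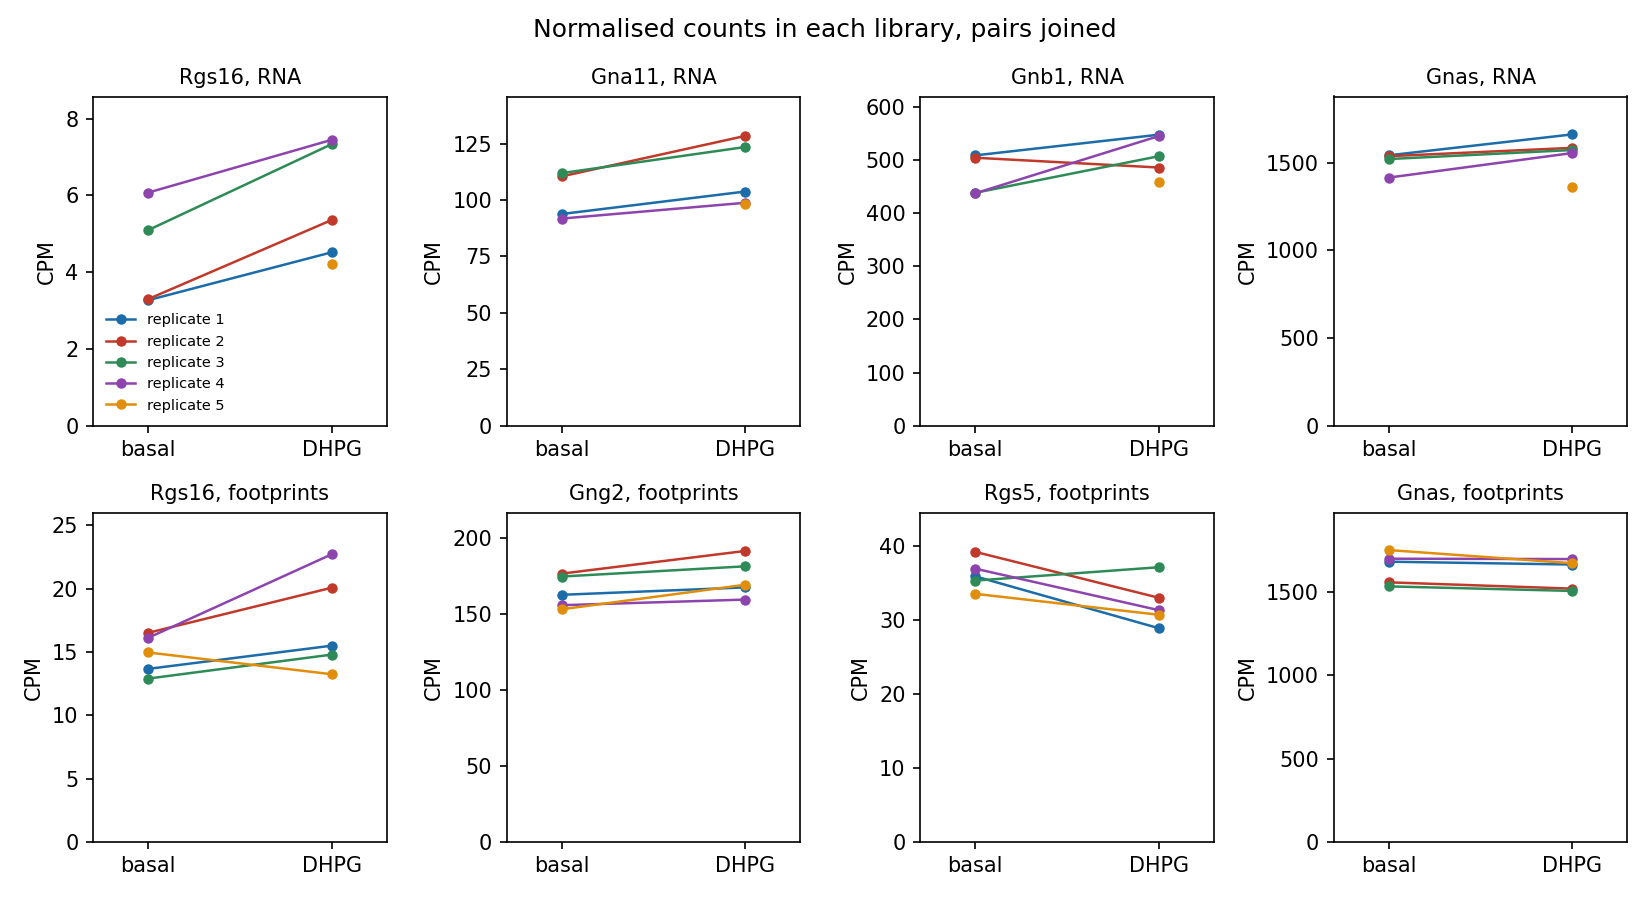
Normalised counts (CPM, axes from 0) of members named for DHPG in each library, with the basal and DHPG slices of a replicate joined and the unpaired DHPG replicate 5 as a single point in RNA. RNA of Rgs16, Gna11 and Gnas is higher in 4 of 4 pairs, Gng2 RPF is higher and Gnas RPF lower in 5 of 5 pairs, and for Gna11 and Gng2 the groups overlap.

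The remaining members named for their p had weaker values. In RNA, Gng7, Rgs6 and Gnai3 were the lowest by p, at -0.16 ± 0.14, -0.14 ± 0.15 and -0.093 ± 0.11. Rgs10 was at -0.10 ± 0.058 in RPF. In TE, Gng7, Rgs4 and Gng4 had the smallest p above 0, at 0.20 ± 0.14, 0.062 ± 0.069 and 0.22 ± 0.28. The adjusted p of these values was 0.529 or more with edgeR.

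Genes that act next to the G proteins were counted in 3 lists of 51 genes: effectors such as phospholipase C β, adenylyl cyclases and GIRK channels, receptor kinases with arrestins, and chaperones with other regulators. None passed the threshold with edgeR in RNA (44 tested), RPF (42) or TE (42). At an unadjusted p under 0.05 there were 3 above and 2 below 0 in RNA, 2 above in RPF and 1 above in TE, against 8.02%, 10.8% and 6.77% of all genes. Their medians (log2) were 0.023 for RNA and 0.012 for RPF. Plcb4, a phospholipase C β isoform abundant in thalamus, was at 0.26 ± 0.11 in RNA and 0.16 ± 0.056 in RPF, and its adjusted p was 0.578 and 0.265. Plcb1, the main isoform of the hippocampus, was at -0.042 ± 0.068 and -0.0086 ± 0.031. In the basal RPF to RNA ratio, the 23 effectors with a value had a median of -0.98 with 9 low and 0 high, and the 6 receptor kinases and arrestins a median of -1.72 with 4 low. The 13 chaperones and other regulators had a median of -0.33 with 0 low and 2 high. Of all genes, 9.77% were low and 9.71% high. The effectors had a median CDS of 3522 bases.

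Many members differed between replicate numbers. A replicate number stands for a pool of animals together with its dissection and libraries, and these cannot be told apart. By an edgeR test over all replicate terms, 17 of 42 members differed in RNA and 25 of 43 in RPF at an adjusted p under 0.05, against 48.1% and 48.3% of all genes. Of the 41 members tested in both assays, 12 differed in both (29.3%, against 28.3% of all genes tested in both), which is 12 of the 17 called in RNA and 12 of the 25 called in RPF. The SD of the replicate means had a median of 0.17 (log2) in RNA over 4 numbers and 0.11 in RPF over 5 numbers, beside 0.22 and 0.13 for all genes.

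In RNA the largest spreads among members that differed belonged to Gng7 (0.58), Gng13 (0.57), Gng5 (0.52), Gnai3 (0.39) and Gna12 (0.38). Gng5 had 14.5, 21.2, 29.0 and 12.6 CPM in basal and 15.0, 22.3, 29.7 and 13.9 CPM in DHPG slices of replicates 1 to 4, so that replicates 2 and 3 were above replicates 1 and 4 in both treatments. Gng13 had 35.8, 60.8, 68.7 and 25.7 CPM in the DHPG slices, with the same division as in basal slices. Gnai3 showed the reverse, with 27.4, 16.7, 14.2 and 27.2 CPM in basal and 23.1, 15.5, 16.9 and 24.3 CPM in DHPG slices. In RPF the spreads of these members were smaller, at 0.058 for Gng5, 0.11 for Gng13, 0.077 for Gng7 and 0.14 for Gnai3. Of these 4 genes, Gnai3 alone differed between replicate numbers in RPF.

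In RPF the largest spreads among members that differed were those of Gng11 (0.25), Rgs14 (0.24), Rgs16 (0.22), Gng12 (0.22) and Gnb2 (0.22). Rgs14 had 132, 91.2, 117, 136 and 137 CPM in basal and 117, 92.0, 109, 140 and 136 CPM in DHPG slices, and replicate 2 was the lowest in both. The sum of 5 CA2 markers, the area in which Rgs14 is concentrated, was 158 CPM in basal RPF of replicate 2, within the range of 137 to 160 CPM of the basal libraries. In DHPG RPF it was 174 CPM in replicate 2, the highest of the DHPG libraries (142 to 174 CPM). Most of the basal sum was Pcp4, at 117 CPM on average in basal RPF. The part of CA2 content in the Rgs14 values was not tested. Gnb2 had 310, 259, 281, 338 and 369 CPM in basal and 314, 264, 263, 363 and 368 CPM in DHPG slices. For both genes the range over replicates was wider than any difference between basal and DHPG slices of the same replicate.

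**Figure D5:**
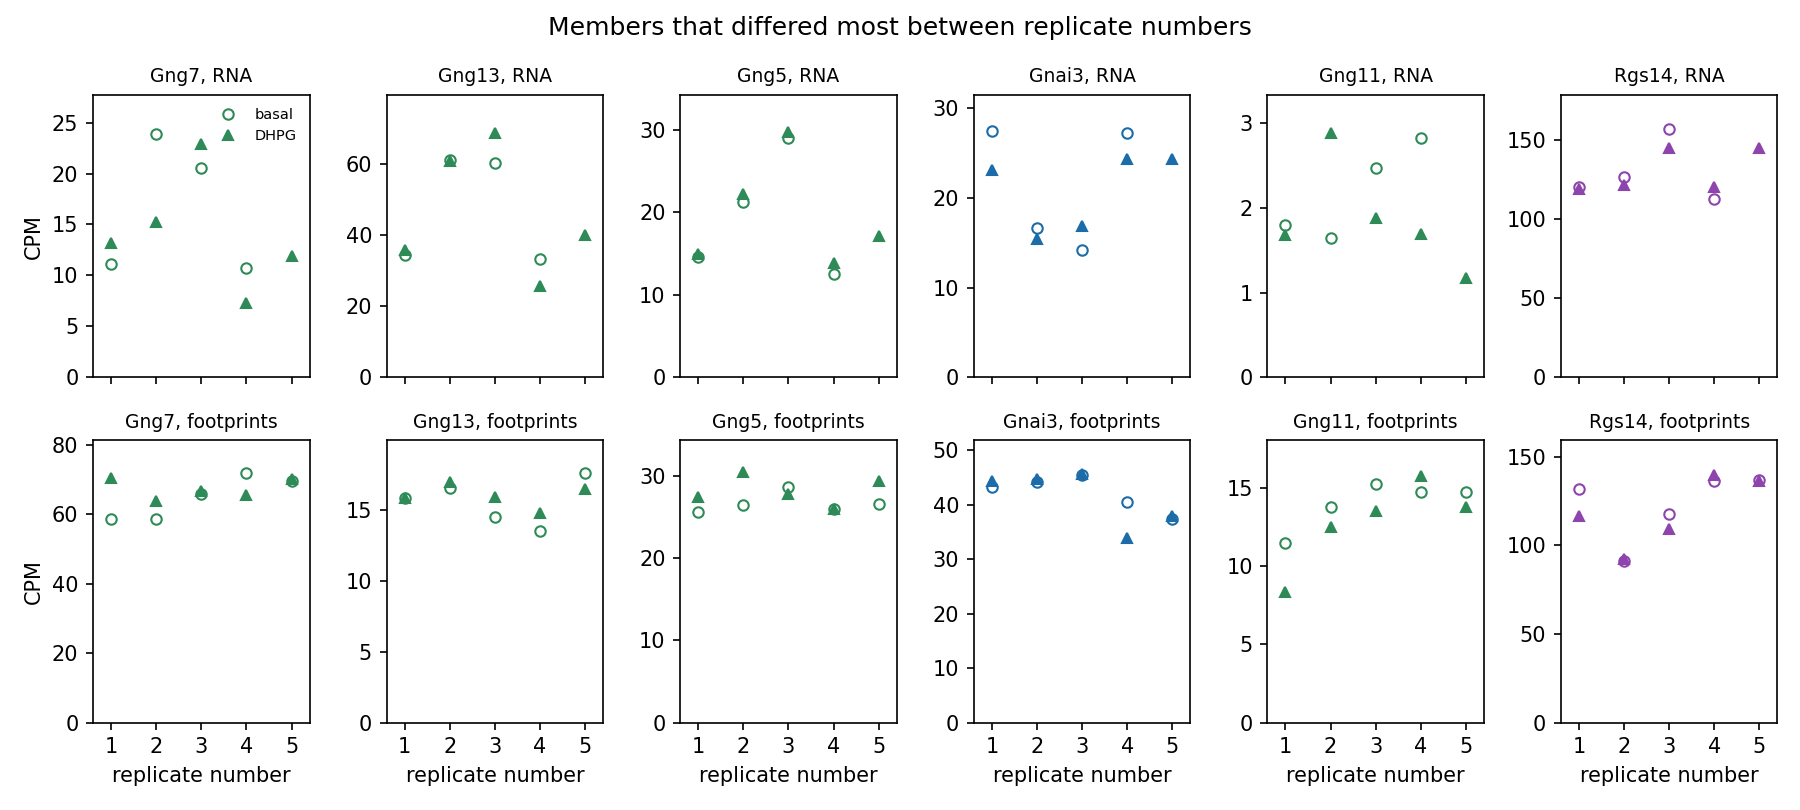
CPM (axes from 0) of 6 members by replicate number in RNA (top) and RPF (bottom), with open circles for basal and filled triangles for DHPG slices. In RNA, Gng7, Gng13 and Gng5 are high and Gnai3 is low in replicates 2 and 3 in both treatments, and their RPFs spread less between replicates.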

How the data were processed

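RNA depleted of rRNA and RPFs were sequenced from the same lysates. Per the methods, the authors trimmed reads with cutadapt, removed rRNA and tRNA reads with Bowtie2, aligned to mm10 with TopHat2, kept uniquely mapped reads without duplicate molecular identifiers and deposited RSEM expected counts per gene, as whole numbers. RPFs were counted on CDS without 30 bases at each end. For RNA, the methods name whole transcripts and, for translational efficiency, CDS, with minimums of transcript length and level that were not applied here. In the deposited tables the log2 ratio of RPF to RNA rose with the ratio of transcript to CDS length (slopes 0.344 to 0.412 over 9726 genes), where counting over whole transcripts would give a slope near -1. The ratio was therefore taken without lengths, a change from the design made after the data were seen. Another 12 columns matched no sample and were not used. Strand use in counting is not given in the sources used here.

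Counts were tested in R 4.3.3 with edgeR 4.0.16 (TMM, filterByExpr, quasi-likelihood F test, Benjamini-Hochberg adjustment over all genes), with the replicate number as a block, since deviations of same-numbered samples correlated in every pair (0.308 to 0.741 in RNA, 0.259 to 0.523 in RPF), although RNA replicate 2 correlated more with another number (0.467) than with its own (0.308). TE was the interaction of assay and treatment over 19 libraries, with the replicate number within each assay as a block. RNA and RPF of a lysate were thus not paired in it, and RPF replicate 5 entered without a basal RNA library. With limma on differences of log2 CPM of RPF and RNA, which pairs them, 0 of 41 members had an unadjusted p under 0.05. The main fit had 3. DHPG replicate 5 carries no weight in the RNA contrast. Log2 CPM used a prior count of 2. Alternatives used DESeq2 1.42.0, sva 3.50.0 (ComBat), limma 3.58.1, other scaling, no filter, no block and the removal of each replicate. CDS lengths, GC content and sequences came from principal GENCODE transcripts (mm10, 53 of 53 members matched). P-values for DHPG and TE set the treatment difference against the spread left after the replicate block. Those for replicate numbers set differences between pools against the spread within them. Scripts were tested on simulated data.

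Named were members past a threshold, the 3 smallest p in each direction, 13 textbook transducers and regulators of group I mGluRs, the 3 highest in basal RNA per family, and the 5 highest and 5 lowest ratios. Others (such as Gng5 and Gnb2 between replicates) were named after their values were seen. The members, lists and tests were chosen with earlier results of these data known.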

Additional observations from a re-analysis of the deposited data

Results flagged for a closer look

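Over 170 groups of 4 or 5 libraries, 8 held a library that stood far from the others by Dixon's criterion, where chance gives about 8.5, or 1 in 20. In RNA, basal replicate 4 had 1415 CPM of Gnas (the others 1521 to 1542), and basal replicate 3 had 83.7 CPM of Gnaz (72.7 to 73.0) and 13.9 CPM of Rgs8 (18.96 to 19.9). DHPG RNA replicate 4 had 131 CPM of Gnaq (104 to 109), and DHPG RNA replicate 3 had 95.3 CPM of Rgs4 (106 to 110). In RPF, basal replicate 1 had 103 CPM of Rgs2 (78.1 to 84.5), basal replicate 5 had 23.7 CPM of Rgs19 (18.8 to 20.2), and DHPG replicate 5 had 46.9 CPM of Gng10 (38.3 to 40.7).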

How the results depend on the processing

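No member passed the thresholds above for DHPG in RNA, RPF or TE under any alternative, except Gng2 after ComBat and DESeq2, where 1 was called in RPF. In that alternative Gnb1 in RNA had an adjusted p of 0.0437 (log2 fold change 0.14), under 0.05 but not under the threshold for RNA of 0.01. Without the replicate block, 0 members were called in each, and 0 (RNA), 1 (RPF) and 0 (TE) had an unadjusted p under 0.05. Over all alternatives, that number was 0 to 6 for RNA, 1 to 6 for RPF and 0 to 3 for TE. Shares of all genes in these alternatives are not given here, so the counts do not set the members apart from other genes. The median log2 fold change was above 0 in 10 of 10 alternatives for RNA, above 0 in 6 of 10 for RPF and below 0 in 9 of 9 for TE. Without replicate 2, Gng7 in RNA turned from -0.16 to 0.0026 and Gng4 in TE from 0.22 to -0.0010. Over the removal of each replicate Gng7 in RNA ranged from -0.31 to 0.0026, and Gng4 in TE from -0.0010 to 0.43.

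In the basal ratio, RNA per kb of whole transcript gave 22 members high and 3 low (median 1.39), against 19.5% and 15.7% of all genes. The median over coding transcripts gave 19 and 3 (median 1.002), against 18.7% and 14.3% of all genes, and DHPG libraries gave a median of 0.31. Less the median of each class of CDS length, an alternative chosen after the data were seen, 7 were high and 2 low (median 0.042). Of all genes, 7.02% were high and 8.61% low in that alternative. Without single replicates, 1 to 3 members were low (3 without replicate 1, with Gna15 and Gng13 added, and 2 without replicate 4, with Rgs11 added). Among all genes 10.1% to 12.1% were low there. The members' median ran from 0.37 to 0.46. Members that differed between replicate numbers numbered 12 to 22 (RNA) and 20 to 26 (RPF) when single replicates were left out. The shares of all genes in those fits are not given here, so the counts do not set the members apart. RNA libraries were shallower than most RPF libraries, which limits changes in RNA and TE.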
